A study of Mus musculus with 9 samples.

Results

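The neurotrophin ligands Bdnf and Ntf3 and the neurotrophin receptors Ntrk2, Ntrk3 and Ngfr were examined in a RIP-seq experiment on CELF2, an RNA-binding protein that controls splicing in the nucleus and the stability and translation of mRNA in the cytoplasm. The members were every RefSeq transcript row of these 5 genes in the deposited count table, 38 of 107384 rows, taken row by row and summed per gene. All 5 genes had at least 0.5 CPM, a count scaled to a common library size, in at least 3 libraries and were among the 15267 protein-coding genes tested.

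In RIP-seq, RNA recovered together with an immunoprecipitated protein is sequenced. The 9 libraries came from the cytoplasmic fraction of cortices of mice at postnatal day 0, all of them heterozygous for the Celf2 knock-in (KI) allele that the labels give as p.R493H. They comprised 3 RIPs with an anti-CELF2 antibody (CELF2-KI RIP), 3 with normal rabbit IgG (IgG RIP) and 3 input samples, aliquots set aside before the antibody was added. Incubation lasted 3 hours in the cold, with 10 µg of antibody in each RIP. No wild-type mouse was among the groups, so the values describe RNA recovered with the antibody in KI cortex and not an effect of the allele. Heterozygous mice also keep a wild-type Celf2 allele, and the sources used here do not say that the antibody separates the mutant protein from the wild-type one. How many animals went into a library was not given in the sources used here.

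Neurotrophins are secreted growth factors that support the survival, outgrowth and synapses of neurons. BDNF signals through the tyrosine kinase receptor TrkB, encoded by Ntrk2, and neurotrophin-3, encoded by Ntf3, signals mainly through TrkC, encoded by Ntrk3, while the p75 receptor encoded by Ngfr binds all mature neurotrophins and their precursors. Ntrk2 and Ntrk3 each give rise to a full-length form with the kinase domain and to truncated forms without it, which bind ligand but cannot phosphorylate.

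Total estimated counts ran from 69125700 to 105116427 in input, from 17365561 to 28773130 in IgG RIP and from 15919600 to 20052716 in CELF2-KI RIP. The 45S rRNA precursor held 35.0%, 33.0% and 10.8% of the counts in IgG RIP replicates 1, 2 and 3, and at most 1.76% in any CELF2-KI RIP or input library, so that IgG RIP replicate 3 stood apart from the other IgG RIPs. Celf2 mRNA, which encodes the protein that was pulled down, was at 296 ± 14.9 CPM in input, 233 ± 33.4 CPM in IgG RIP and 638 ± 164 CPM in CELF2-KI RIP (mean ± SD, n = 3 each). CPM values are scaled by TMM, a normalization that assumes most genes do not differ. A gene was called when its FDR, from edgeR's quasi-likelihood test over all genes tested, was under 0.01 and its level differed at least 2-fold.

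Against IgG RIP, which measures RNA that sticks to beads and antibody without CELF2, the receptor Ntrk3 was called higher in CELF2-KI RIP and none of the other members was called. Thus 1 of the 5 members was called higher, where 13.4% of all genes tested were called higher. Against input, Ntrk3 and Ntrk2 were called higher, 2 of 5 members, where the share over all genes was 14.6%. Between IgG RIP and input 0 members were called with edgeR, where 6.79% of all genes were called higher and 5.0% lower. Those shares rest on 1801 called genes, which were 1105, 1147 and 1165 without input replicate 1, 2 and 3 and 2641 without IgG RIP replicate 3. In that comparison 3 members, Ntf3, Ntrk3 and Ngfr, had an unadjusted p under 0.05, as did 7484 of all 15267 genes tested. DESeq2's Wald test called 1 member, Ntf3, and the share it called over all genes is not given here. Ntrk3 alone was called higher than both controls, which held for 7.58% of all genes. With so few members, these counts cannot set the members apart from genes at large. The comparisons share libraries and are not independent of each other. Median log2 fold changes of the members were 0.89 against IgG RIP and 0.66 against input, beside -0.06 and 0.19 over all genes tested.

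Bdnf, the ligand of TrkB, was scarce in every library. Its level was 4.35, 4.01 and 3.64 CPM in replicates 1, 2 and 3 of input, 4.57, 4.36 and 3.73 CPM in those of IgG RIP and 5.76, 6.85 and 6.34 CPM in the CELF2-KI RIPs. All 3 CELF2-KI RIPs lay above all 6 control libraries, a separation seen for 25.2% of all genes tested, and IgG RIP overlapped input. The level was 1.5-fold that of IgG RIP (log2 fold change 0.58, SE 0.21, edgeR FDR = 0.0353) and 1.58-fold that of input (0.66, SE 0.20, FDR = 0.0163), short of the call in both. IgG RIP differed from input by 0.08 on the log2 scale (95% interval -0.38 to 0.53). These values rest on 71 to 89 counts per CELF2-KI RIP library and 44 to 73 per IgG RIP library.

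Ntf3, the ligand of TrkC, had the opposite order against input. Its level was 8.22, 7.67 and 7.75 CPM in the input libraries, 3.57, 5.55 and 2.87 CPM in the IgG RIPs and 5.76, 5.24 and 3.93 CPM in the CELF2-KI RIPs. Both kinds of RIP lay below all input libraries and overlapped each other, and IgG RIP lay below input throughout for 29.4% of all genes tested. CELF2-KI RIP and IgG RIP did not differ beyond the spread between libraries (log2 fold change 0.33, 95% interval -0.27 to 0.94, edgeR FDR = 0.331). Against input the log2 fold change was -0.66 for CELF2-KI RIP (SE 0.26, FDR = 0.0488) and -0.99 for IgG RIP (SE 0.26, FDR = 0.0139), and neither was called. Without IgG RIP replicate 2, the highest of its group, the latter became -1.30 and was called.

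Ntrk2 encodes the BDNF receptor TrkB. Its level was 1020, 995 and 949 CPM in the input libraries, 1136, 1065 and 917 CPM in the IgG RIPs and 1576, 2486 and 1874 CPM in the CELF2-KI RIPs. All CELF2-KI RIPs lay above all controls, replicate 2 was the highest, and IgG RIP overlapped input. The level was 1.90-fold that of IgG RIP (log2 fold change 0.93, SE 0.16, edgeR FDR = 0.000702), which missed the 2-fold limit, and 2.0-fold that of input (1.0, SE 0.16, FDR = 0.000382), which met it by a narrow margin. Replicate numbers paired CELF2-KI RIP with input. With these numbers as a block over all 3 conditions, the change over input was 0.99 and the call was lost, leaving 1 member called against input. Leaving out 1 library also ended it, at 0.81 without CELF2-KI RIP replicate 2, 0.89 without input replicate 2 and 0.97 without input replicate 3, whereas without CELF2-KI RIP replicate 1 the change over IgG RIP became 1.07 and was called. Sums over the curated RefSeq rows alone gave 0.52 against IgG RIP (edgeR FDR = 0.101) and 0.38 against input (FDR = 0.217), which also ended the call.

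Ntrk3 encodes the neurotrophin-3 receptor TrkC and had the largest change of the members in both comparisons with CELF2-KI RIP. Its level was 498, 486 and 453 CPM in the input libraries, 647, 607 and 563 CPM in the IgG RIPs and 1096, 1719 and 1349 CPM in the CELF2-KI RIPs. The 3 conditions did not overlap, with CELF2-KI RIP highest and input lowest, and IgG RIP lay above input throughout for 27.1% of all genes tested. It rose 2.29-fold over IgG RIP (log2 fold change 1.20, SE 0.15, edgeR FDR = 0.000106) and 2.90-fold over input (1.53, SE 0.15, FDR = 2.31e-05). IgG RIP stood 1.26-fold above input, which was not called (0.34, SE 0.15, FDR = 0.1). Both calls held in all 9 fits that each left out 1 library, with log2 fold changes of 1.01 to 1.34 and 1.35 to 1.68. By its log2 fold change Ntrk3 lay above 88.9% of all genes tested against IgG RIP and above 95.6% against input. Sums over the curated RefSeq rows alone gave 0.62 (FDR = 0.153) and 0.39 (FDR = 0.351), and both calls were lost.

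Ngfr encodes the p75 receptor. Its level was 17.2, 20.3 and 21.2 CPM in the input libraries, 11.1, 14.0 and 16.6 CPM in the IgG RIPs and 23.1, 25.6 and 28.3 CPM in the CELF2-KI RIPs. The 3 conditions did not overlap, with IgG RIP lowest. CELF2-KI RIP lay above all controls for 25.2% of all genes tested, and IgG RIP below input throughout for 29.4%. For Ngfr the control used decided the size of the difference. It was 1.85-fold over IgG RIP (log2 fold change 0.89, SE 0.18, edgeR FDR = 0.00164), under the 2-fold limit, and 1.31-fold over input (0.39, 95% interval 0.01 to 0.77, FDR = 0.0709). IgG RIP was at 0.707 of the input level (-0.50, SE 0.17, FDR = 0.0421). Without IgG RIP replicate 3 the log2 fold change over IgG RIP was 1.04 and was called.

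**Figure D1:**
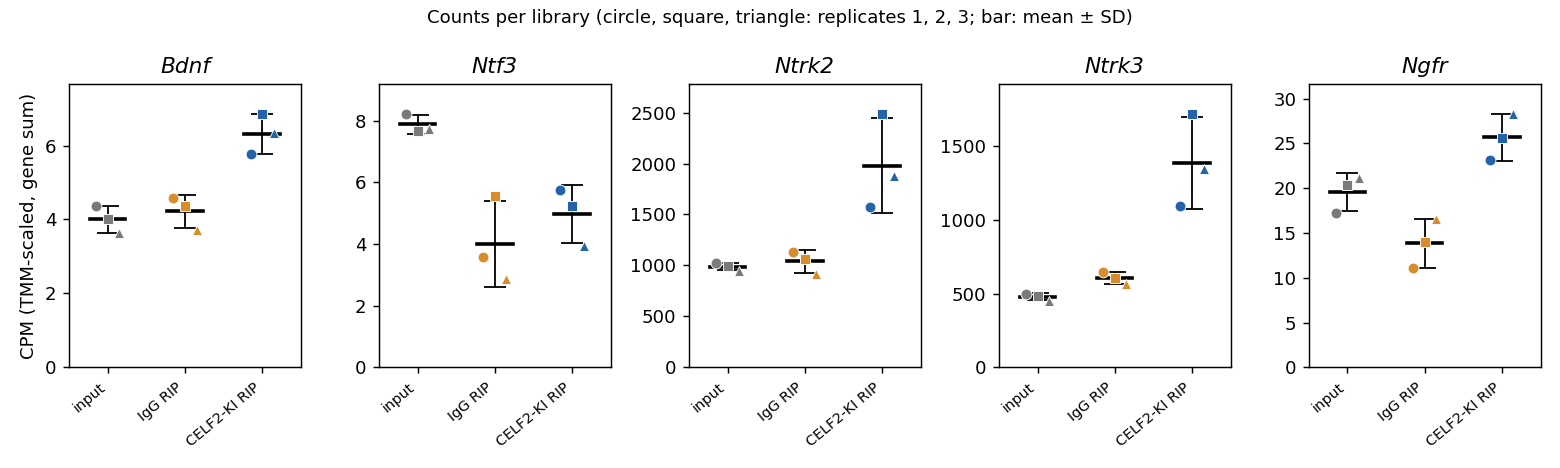
TMM-scaled CPM of Bdnf, Ntf3, Ntrk2, Ntrk3 and Ngfr in input, IgG RIP and CELF2-KI RIP, 1 panel per gene with its own axis from 0, points for the 3 libraries of each condition, and bars for the mean ± SD. The CELF2-KI RIP points lie above all 6 controls for Bdnf, Ntrk2, Ntrk3 and Ngfr, as for 25.2% of all genes tested. Both kinds of RIP lie below input for Ntf3.

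The levels by library show that Bdnf, Ntrk2, Ntrk3 and Ngfr separated CELF2-KI RIP from all 6 controls, as did 25.2% of all genes tested. Ntf3 did not, and Bdnf and Ngfr were called in neither comparison with CELF2-KI RIP. The plot of fold changes sets the same genes beside the median of all genes.

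**Figure D2:**
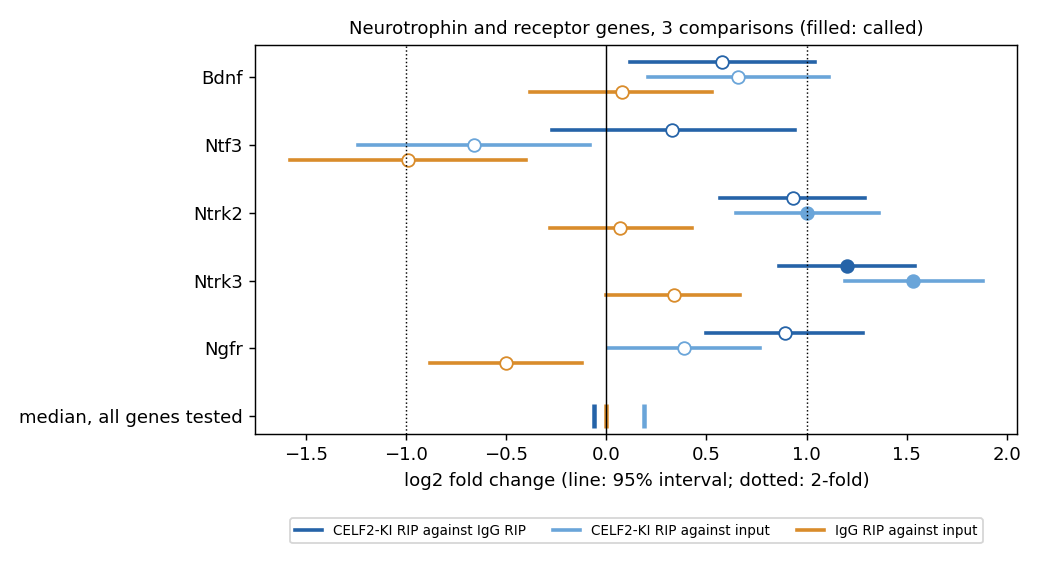
Log2 fold change of each gene in the 3 comparisons with its 95% interval, filled points for called genes, dotted lines at 2-fold and ticks for the median of all genes tested. Ntrk3 lies beyond 2-fold in both comparisons with CELF2-KI RIP, Ntrk2 at 2-fold against input only, and Ntf3 is the only member below 0 against input in CELF2-KI RIP.

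The scale decides where these values sit. With library totals in place of TMM, the median log2 fold change of all genes moved from -0.06 to -0.42 against IgG RIP and from 0.19 to -0.27 against input. Ntrk3 then stood at 0.81 against IgG RIP, no longer called, Ntf3 turned to -0.04 against IgG RIP, and Ngfr turned to -0.07 against input. Ntf3 was called lower than input on that scale, at -1.12. The call of Ntrk2 against input was lost with DESeq2 size factors (0.86), upper-quartile scaling (0.76) and library totals (0.53), and upper-quartile scaling also ended that of Ntrk3 against IgG RIP (0.93). TMM factors were below 1 in all 3 CELF2-KI RIPs and above 1 in all 6 controls.

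The genes lie on separate chromosomes in assembly GRCm38.p6. Bdnf is on chromosome 2 at 109674700 to 109727043, Ntf3 on chromosome 6 at 126101412 to 126166772, and Ngfr on chromosome 11 at 95568818 to 95587698. Ntrk2, on chromosome 13 at 58806472 to 59133970, overlaps the lncRNA gene Gm53063, and Ntrk3, on chromosome 7 at 78179986 to 78581034, overlaps the lncRNA gene Gm39038. Whether the counting used strand was not given in the sources used here, so reads could not be assigned between these overlapping genes with certainty.

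Of the 38 rows, 30 passed the filter of 0.5 CPM in 3 libraries and 8 did not, 7 of Bdnf and 1 of Ntrk3. In 6 of the 30, all 3 IgG RIPs held at most 3 counts, and such a row passed only through the other conditions. Of the rows, 1 was called higher against IgG RIP and 2 against input, where 3.19% and 0.94% of all 39137 rows tested were called higher, and 0 were called lower in either, where the shares were 3.15% and 4.51%. Between IgG RIP and input 0 rows were called with edgeR, where 0.879% of all rows were higher and 1.65% lower. Of the members' rows, 11 had an unadjusted p under 0.05 and DESeq2's Wald test called 7. No shares over all rows are given for those measures, so these counts cannot set the members' rows apart from rows at large. The 11 also include rows with at most 3 counts in each IgG RIP. Such rows passed only through the other conditions, so their lower level in IgG RIP was not independent of the filter. The pseudoaligner divides reads among overlapping transcripts, and the deposited table carries no error for that division, so the row tests do not contain it.

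The rows of Ntrk3 did not move together. Most of the gene's difference sat on a predicted coding transcript, XM_011250817.2, and a predicted noncoding one, XR_882022.2. XM_011250817.2 was at 161, 161 and 117 CPM in the input libraries, 226, 159 and 204 CPM in the IgG RIPs and 515, 674 and 596 CPM in the CELF2-KI RIPs, on the TMM scale of the rows. All CELF2-KI RIPs were above all controls, as in 8.3% of all rows tested. It was called higher than IgG RIP (log2 fold change 1.60, edgeR FDR = 0.0017) and than input (2.02, FDR = 0.000676) and carried 70.2% of the gene's difference in mean CPM over IgG RIP and 74.5% of that over input. With replicate number as a block the change over IgG RIP was again 1.60, but its FDR was 0.0129 and the call was lost. Same-numbered CELF2-KI RIP and IgG RIP libraries showed no clear pairing, with correlations of -0.056 to 0.0429 in their deviations from the condition mean. XR_882022.2 was at 33.0, 48.7 and 47.9 CPM in the input libraries, 87.9, 73.7 and 84.6 CPM in the IgG RIPs and 145, 168 and 238 CPM in the CELF2-KI RIPs. Its 3 conditions did not overlap, and it was called against input (2.09, FDR = 0.0013) but not against IgG RIP (1.16, FDR = 0.0121).

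The curated Ntrk3 rows went separate ways. The full-length, kinase-bearing row NM_008746.5 was at 122, 123 and 121 CPM in the input libraries, 66.5, 61.7 and 37.5 CPM in the IgG RIPs and 35.5, 37.0 and 59.2 CPM in the CELF2-KI RIPs. Both kinds of RIP lay far below input and overlapped each other. Its log2 fold change against input was -1.47 in CELF2-KI RIP (edgeR FDR = 0.0105, just short of the call) and -1.14 in IgG RIP (FDR = 0.0352). The truncated row NM_182809.2 was at 96.6, 90.1 and 92.5 CPM in the input libraries, 94.3, 121 and 41.1 CPM in the IgG RIPs and 129, 205 and 144 CPM in the CELF2-KI RIPs. All CELF2-KI RIPs were above all controls, but the differences were not called against IgG RIP (0.90, FDR = 0.149) or input (0.78, FDR = 0.232). The remaining Ntrk3 row with over 10% of the gene in any condition, the predicted noncoding XR_882025.2, ranged from 26.6 to 183 CPM within CELF2-KI RIP alone and was not called (0.59 against IgG RIP, edgeR FDR = 0.595, and 0.29 against input, FDR = 0.865).

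**Figure D3:**
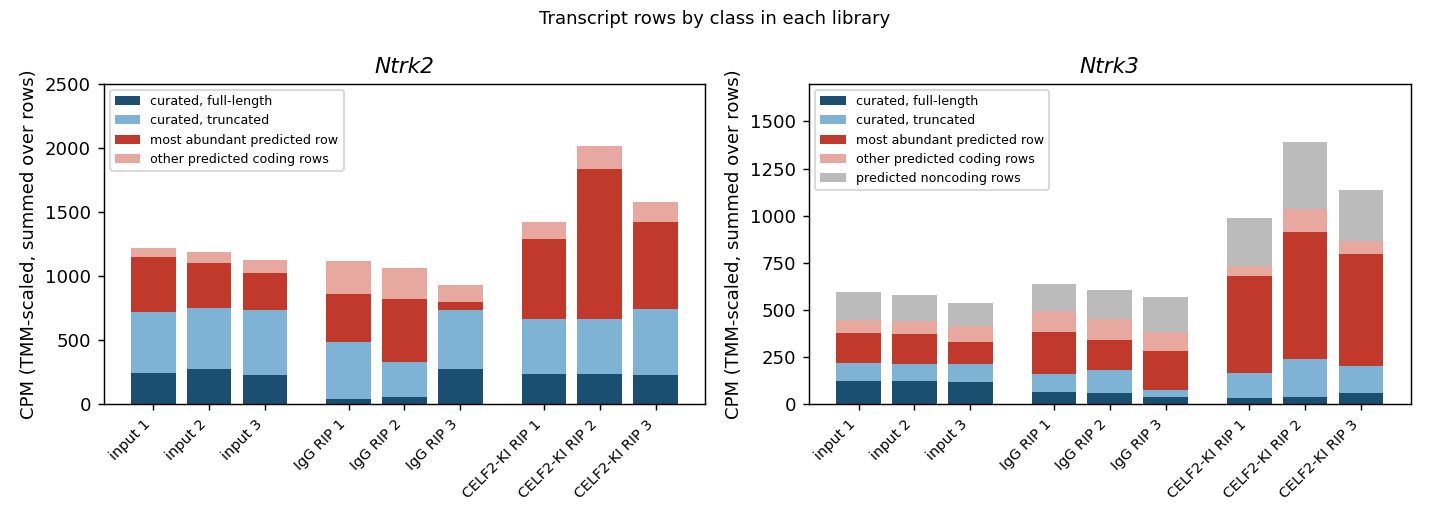
TMM-scaled CPM of the Ntrk2 and Ntrk3 rows in each of the 9 libraries, stacked as curated full-length, curated truncated, the most abundant predicted row (XM_006517149.3 and XM_011250817.2), other predicted coding and predicted noncoding rows. In Ntrk3 the most abundant predicted row is at most at 161 CPM in input and at least at 515 CPM in CELF2-KI RIP, and in Ntrk2 the same class was small in IgG RIP replicate 3, at 62.1 CPM.

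The stacked plot shows how much of each gene lies outside the curated rows. Curated rows held 16.6% to 17.9% of the Ntrk3 counts in CELF2-KI RIP, 13.8% to 30.1% in IgG RIP and 36.6% to 39.8% in input. Predicted noncoding rows held 22.3% to 32.3% of Ntrk3 counts over all 9 libraries. No transcript structure was at hand to place the predicted rows in the full-length or truncated form, so the comparison of forms rests on curated rows alone. Which curated row is full-length and which truncated is background knowledge of these RefSeq records, and no file used here could check it.

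Among the curated Ntrk3 counts, the truncated form made up 44.2%, 42.3% and 43.3% in the input libraries, 58.7%, 66.2% and 52.3% in the IgG RIPs and 78.5%, 84.7% and 70.9% in the CELF2-KI RIPs. The conditions did not overlap, and CELF2-KI RIP was highest. How many other genes have such an order of forms is not given here. The exact 95% binomial (Clopper-Pearson) intervals of single libraries were within ± 3.02 percentage points and cover counting error only. The mean share was 34.8 percentage points higher in CELF2-KI RIP than in input and 19.0 points higher than in IgG RIP, and IgG RIP was 15.7 points above input. Each of these had p = 0.1 in a two-sided exact permutation test, the smallest that 3 against 3 libraries allow, and 0.2 after adjustment over the 6 comparisons of forms. The ratio of truncated to full-length in CELF2-KI RIP was 4.77 times that in input (log2 difference 2.25), but edgeR's diffSpliceDGE did not call it (FDR = 0.735). That test called 1.19% of 32881 rows in this comparison, 1.66% for CELF2-KI RIP against IgG RIP and 1.9% for IgG RIP against input. The limma diffSplice test, added after the data were seen, gave FDR = 0.00179 for the same difference, so its call depends on the test. Against IgG RIP the log2 difference was 1.24 (edgeR FDR = 1.0, limma FDR = 0.121), and between IgG RIP and input it was 1.02 (edgeR FDR = 1.0, limma FDR = 0.137). The comparisons with CELF2-KI RIP ran from 0.90 to 1.58 against IgG RIP and from 1.92 to 2.60 against input when 1 library was left out.

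The forms of Ntrk2 showed no such difference between CELF2-KI RIP and input. The truncated share was 64.0%, 64.4% and 68.7% in CELF2-KI RIP and 65.6%, 63.7% and 69.0% in input, and these overlapped. The log2 difference between truncated and full-length was -0.02 (edgeR FDR = 1.0) and ran from -0.12 to 0.08 when 1 library was left out. In IgG RIP the share was 91.6%, 82.5% and 62.1%, with replicate 3 apart from the others. The full-length row NM_001025074.2 was at 41.0, 57.9 and 278 CPM in those libraries, against 233 to 241 CPM in CELF2-KI RIP and 228 to 273 CPM in input. It was not called in CELF2-KI RIP against IgG RIP (log2 fold change 0.91, edgeR FDR = 0.413) or input (-0.07). The log2 difference of CELF2-KI RIP against IgG RIP was -0.70 with all libraries, -1.92 without IgG RIP replicate 3 and -0.17 without IgG RIP replicate 1. That of IgG RIP against input was 0.68, 1.91 and 0.15 in the same order (edgeR FDR = 1.0 with all libraries in both comparisons). The sizes of the Ntrk2 form differences from IgG RIP thus depend on which IgG RIP library is left out. Replicate 3 is the one with the lower rRNA share, and the part of rRNA in these differences was not tested.

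**Figure D4:**
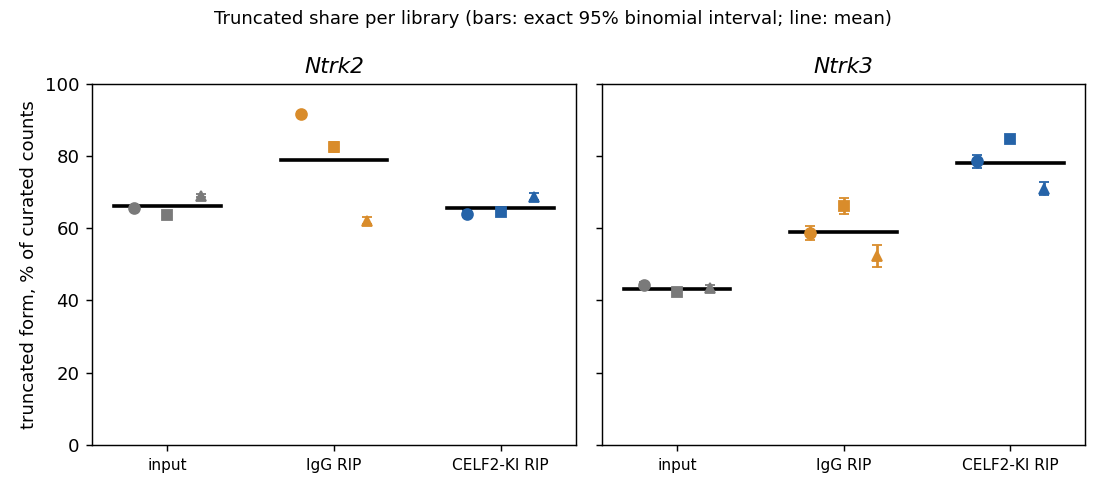
Truncated form as a percentage of curated Ntrk2 counts (left) and Ntrk3 counts (right) in each library, with exact 95% binomial intervals and a line at the mean of each condition. The Ntrk3 share lies between 42.3% and 44.2% in input and between 70.9% and 84.7% in CELF2-KI RIP, and the Ntrk2 share is spread only in IgG RIP, from 62.1% to 91.6%.

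The higher level of Ntrk2 in CELF2-KI RIP lay mainly on 1 predicted coding row. XM_006517149.3 was at 426, 351 and 287 CPM in the input libraries, 369, 494 and 62.1 CPM in the IgG RIPs and 622, 1170 and 677 CPM in the CELF2-KI RIPs. All CELF2-KI RIPs were above all controls, and the row carried 81.0% of the gene's difference over IgG RIP and 94.6% of that over input. It was not called in either comparison (log2 fold change 1.42, edgeR FDR = 0.196, and 1.21, FDR = 0.302), with IgG RIP replicate 3 far below the rest of its group. The truncated row NM_008745.3 was at 219, 230 and 164 CPM in the input libraries, 160, 142 and 122 CPM in the IgG RIPs and 220, 387 and 258 CPM in the CELF2-KI RIPs (1.03 against IgG RIP, FDR = 0.0235, and 0.50 against input, FDR = 0.236).

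Of the other Ntrk2 rows with at least 10% of the gene in any condition, a pair had lower means in CELF2-KI RIP than in IgG RIP. The smaller predicted row XM_006517150.3 did as well, at 43.4 against 48.0 mean CPM. The other truncated row, NM_001282961.1, was at 254, 248 and 344 CPM in the input libraries, 289, 131 and 334 CPM in the IgG RIPs and 208, 42.8 and 254 CPM in the CELF2-KI RIPs. The conditions overlapped, and its mean of 168 CPM in CELF2-KI RIP was below those of 251 in IgG RIP and 282 in input, without a call (-0.58, edgeR FDR = 0.62, and -0.75, FDR = 0.558). It took -13.1% and -23.0% of the gene's difference over IgG RIP and input. The predicted coding row XM_006517151.3 was at 49.7, 58.7 and 48.8 CPM in the input libraries, 207, 182 and 96.0 CPM in the IgG RIPs and 76.2, 125 and 95.7 CPM in the CELF2-KI RIPs. Both kinds of RIP lay above all input libraries and overlapped each other. CELF2-KI RIP stood -0.71 from IgG RIP on the log2 scale (edgeR FDR = 0.166) and 0.92 above input (FDR = 0.0901), and IgG RIP stood 1.63 above input (FDR = 0.016), with no call in any comparison.

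Among the ligands, the counts of single rows were too low to divide. Of 12 Bdnf rows 5 passed the filter, and the highest value of any of these was 3.11 CPM. NM_001048142.1 was at 0.687, 2.96 and 1.80 CPM in CELF2-KI RIP and at 0 counts in all 3 IgG RIPs, and the input libraries had 0.688 to 1.13 CPM. All 5 Ntf3 rows passed, with at most 5.81 CPM, in input, for NM_001164035.1. No row of either gene was called in any comparison by edgeR, and fold changes against a condition at 0 are not given. Ngfr has a single row, NM_033217.3, so its gene and row are the same counts, but rows have TMM factors of their own and the values moved with them. On the row scale its log2 fold change was -0.10 against input, with CELF2-KI RIP and input overlapping, and 0.65 against IgG RIP (edgeR FDR = 0.0974), so the direction against input turned between the scales.

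The genes whose profile over the 9 libraries came nearest to each member were found by the Euclidean distance of log2 CPM centred on each gene's mean. They are described by this distance alone. For Ntrk3 they were Pcnx (distance 0.15) and Senp5 (0.16), beside a median of 2.37 over all genes. For Ntrk2 they were D16Ertd472e (0.19) and Grin2b (0.20, median 1.97), and for Bdnf Cask and Il1rap (0.22 each, median 1.70). Those of Ngfr were Gnb4 (0.34) and Fbln7 (0.35, median 1.94), and those of Ntf3 were Rnf13 (0.45) and Sys1 (0.46, median 2.28). Grin2b, an NMDA receptor subunit gene, was at 2034, 991 and 931 mean CPM in CELF2-KI RIP, IgG RIP and input.

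Genes of neurotrophin signalling outside the 5 were taken from a list of 66, from precursor processing and sorting through adaptors to the Ras and PI3K branches. Of these, 65 were tested. Plg, which encodes plasminogen, held at most 14 counts in any library and was not tested. Against IgG RIP 15 rose and 5 fell, 23.1% and 7.7% of those tested, beside 13.4% and 13.6% over all genes tested. Against input 16 rose and 12 fell, 24.6% and 18.5%, beside 14.6% and 15.5%. Median log2 fold changes of the list were 0.30 and 0.49, beside -0.06 and 0.19 over all genes. Between IgG RIP and input 2 rose and 2 fell, 3.1% each, beside 6.8% and 5.0% over all genes. The median there was 0.01, beside 0.00 over all genes. These splits moved with the scale, since library totals in place of TMM gave 2 higher and 10 lower against IgG RIP and 3 higher and 13 lower against input, beside 937 higher and 3421 lower, and 531 higher and 3581 lower, over all genes. Upper-quartile scaling gave 6 higher and 9 lower against IgG RIP, beside 1212 and 3017 over all genes. Against input it gave 9 higher and 12 lower, beside 1177 and 2964. DESeq2 size factors gave 11 higher and 6 lower against IgG RIP, beside 1839 and 2280 over all genes. Against input they gave 12 higher and 12 lower, beside 1566 and 2713.

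On the TMM scale 13 of the 65 genes tested in the list were called higher than both controls, where 7.58% of all genes tested were. Those nearest the receptor included the adaptors Frs2, which docks on activated Trk receptors, Frs3, Shc3, Crk and Crkl, the docking protein Irs1 and the phosphatase Ptpn11. Frs2 was at 44.8 mean CPM in input, 51.7 in IgG RIP and 132 in CELF2-KI RIP (log2 fold changes 1.35 against IgG RIP and 1.56 against input, edgeR FDR = 0.000406 and 0.000138). Shc3, an adaptor made in neurons, was at 44.6, 59.2 and 142 mean CPM in the same order (1.26 and 1.67, edgeR FDR = 0.000307 and 4.67e-05). The others of this group rose by 1.03 to 1.38 over IgG RIP and by 1.04 to 1.52 over input. In the Ras branch Nras and Braf rose by 1.53 and 1.17 over IgG RIP and by 1.22 and 1.13 over input. In the PI3K branch the regulatory subunit gene Pik3r1 and the kinase gene Pdpk1 rose by 1.04 and 1.05 over IgG RIP and by 1.36 and 1.37 over input. Creb1, a transcription factor that acts downstream, and Traf6, an adaptor of p75, rose by 1.05 and 1.48 over IgG RIP and by 1.11 and 1.38 over input.

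The genes called lower than both controls were 4, where 9.54% of all genes tested were, namely Hras, Map2k2, Pik3r2 and Sh2b2. Hras, a close relative of Nras, was at 61.6 mean CPM in input, 37.4 in IgG RIP and 10.2 in CELF2-KI RIP (log2 fold changes -1.87 against IgG RIP and -2.60 against input, edgeR FDR = 1.57e-05 and 2.15e-06). Pik3r2, which like Pik3r1 encodes a PI3K regulatory subunit, fell by 1.11 against IgG RIP and by 1.40 against input. Map2k2 encodes MEK2 and fell by 1.06 and 1.61, and the adaptor gene Sh2b2 fell by 1.02 and 1.11. Genes of the same branch thus lay on both sides.

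Called against IgG RIP alone were Sort1 and Grb2, higher, and Arhgdia, lower. Sort1, the sortilin gene, whose product sorts BDNF and binds neurotrophin precursors with p75, was at 682, 295 and 411 mean CPM in CELF2-KI RIP, IgG RIP and input (1.21 against IgG RIP, edgeR FDR = 9.01e-06, and 0.73 against input). Grb2, an adaptor to Ras, rose by 1.30 over IgG RIP and stood at 0.91 against input. Arhgdia was at 4.22, 17.4 and 1.99 mean CPM and was called higher in IgG RIP than in input (3.12, edgeR FDR = 0.00117). Ntf5, which encodes neurotrophin-4, another ligand of TrkB, was scarce, at 0.367, 0.711 and 0.321 mean CPM in the same order of conditions, and was not called.

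**Figure D5:**
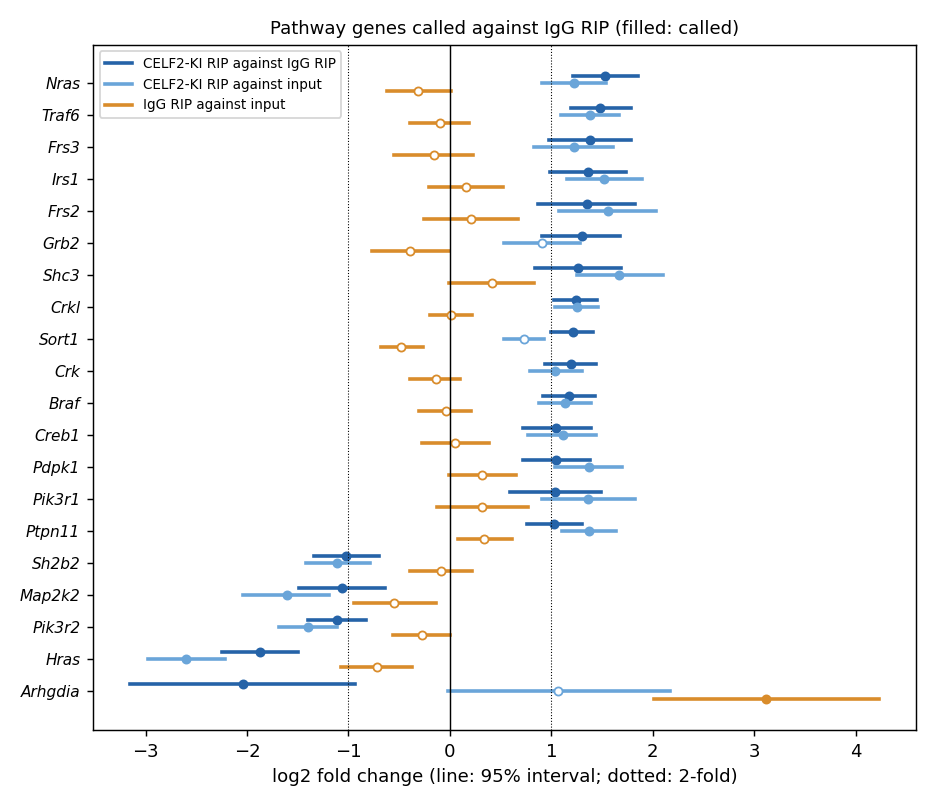
Log2 fold changes, with 95% intervals, of the 20 genes of the neurotrophin signalling list that were called between CELF2-KI RIP and IgG RIP on the TMM scale, in all 3 comparisons, with filled points for calls and dotted lines at 2-fold. The 15 higher genes stand between 1.03 and 1.53 against IgG RIP, and Arhgdia is the only one of the 20 called between IgG RIP and input.

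Markers of cell types moved between the conditions too. In a bulk level, fewer cells of a type and less RNA per cell cannot be told apart. Input was an aliquot of the fraction used for RIP, so a RIP and input compare recovered RNA and not numbers of cells. Over all genes tested, 13.4% were called higher and 13.6% lower in CELF2-KI RIP than in IgG RIP, and 14.6% and 15.5% against input. The 6 excitatory neuron markers summed to 1570 to 2180 CPM in CELF2-KI RIP, 852 to 983 in the IgG RIPs and 910 to 1080 in the input libraries. Of these markers, 3 were called higher than IgG RIP and 3 higher than input. The 6 inhibitory neuron markers summed to 533 to 607, 333 to 380 and 443 to 461 CPM, with 1 called higher than IgG RIP and 1 lower than input. Each of these was 16.7% of the list, near the shares over all genes. The 6 radial glia markers summed to 130 to 214, 340 to 411 and 493 to 544 CPM, with 3 called lower than IgG RIP and 4 lower than input. The 4 erythroid markers summed to 77.5 to 86.5, 347 to 546 and 818 to 1070 CPM, with all 4 called lower than IgG RIP and 3 lower than input. The astrocyte sum, 835 to 1210 CPM in CELF2-KI RIP, was above the 649 to 709 CPM of IgG RIP and overlapped the 1110 to 1290 CPM of input. Its 6 markers went separate ways. Aqp4 was called higher than IgG RIP (1.69), and Aldoc was called lower than IgG RIP (-1.39) and input (-2.23). The largest part of the sum was Slc1a3, at 492 mean CPM in CELF2-KI RIP and not called. The microglia sum was 91.2 to 125, 50.2 to 67.6 and 93.7 to 117 CPM, with 1 of 5 tested markers called higher and 1 lower than IgG RIP. Most of that sum was Cx3cr1, at 91.8 mean CPM in CELF2-KI RIP, and against input Aif1, C1qa and Tmem119 were called lower and Csf1r, at 0 in all input libraries, higher. In the lists of oligodendrocyte precursor, endothelial and pericyte, meningeal, and Cajal-Retzius and subplate markers no gene was called between CELF2-KI RIP and IgG RIP. Against input, 2 of 5 oligodendrocyte precursor markers and 1 of 6 endothelial and pericyte markers were called lower. Of the 4 meningeal markers, 1 was called higher and 1 lower. The meningeal sum was 850 to 1490 CPM in CELF2-KI RIP, 880 to 1260 in IgG RIP and 517 to 741 in input. The Cajal-Retzius and subplate sum was 2640 to 2850, 2200 to 3360 and 1470 to 1800 CPM, without a call against input. No marker was at 0 in all 9 libraries. The part of these markers in the differences of the neurotrophin genes was not tested.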

How the data were processed

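RNA of 9 RIP-seq libraries was analysed. The authors depleted rRNA, made directional libraries, checked reads with FastQC 0.11.9, trimmed them with fastp 0.23.4, removed rRNA reads with Ribodetector 0.3.1 and pseudoaligned with Kallisto 0.51.1. The submitters' processing notes also name mm10, DESeq2 1.46.0 and edgeR 4.4.0. They deposited estimated counts per RefSeq transcript, normalized neither for depth nor length, so levels of different genes were not compared. The shares of forms and rows within a gene are shares of counts without correction for length, and not of molecules.

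A RefSeq table of GRCm38.p6 gave the gene of 86722 of 107384 rows by versionless accession, and counts were summed per gene and rounded. The test took protein-coding genes that reached 0.5 CPM in 3 or more of the 9 libraries and was run in R 4.3.3 with edgeR 4.0.16 (TMM, quasi-likelihood test, 1 mean per condition, all 9 libraries in the fit), and rows likewise. Calls needed a Benjamini-Hochberg FDR under 0.01 and 2-fold. Forms were tested with diffSpliceDGE (FDR under 0.05) and, added later, with diffSplice of limma 3.58.1 after voom. The Ntrk2 forms were NM_001025074.2 (full-length) and the sum of NM_008745.3 and NM_001282961.1 (truncated), and the Ntrk3 forms NM_008746.5 and NM_182809.2. DESeq2 1.42.0 and other scalings, filters and left-out libraries were alternatives. Python 3.11.15, pandas 2.3.3, scipy 1.17.1 and matplotlib 3.10.9 made tables and plots. The steps were tested on simulated counts.

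The members and lists were chosen with earlier results of these data known. Genes named are the 5 members, their rows, Celf2, the genes of the signalling list called against both controls plus up to 5 more in each direction with the largest change among those called against IgG RIP, and the 2 genes with the nearest profile to each member. Ntf5, Plg and single cell type markers lie outside this rule and were named after their values were seen. Fold changes of single rows are given for Ntrk2 and Ntrk3 rows with at least 10% of their gene in any condition, a limit set after the values were seen. A condition with at most 3 counts in each library was taken as at the floor. Reads carry no molecular identifiers, so intervals cover counting error or the spread of these libraries. The study describes the libraries of a condition as biological replicates.

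Deviations from the condition mean were correlated between same-numbered libraries over 15267 genes, which are not independent replicates. CELF2-KI RIP and input gave correlations of 0.11 to 0.122, IgG RIP and CELF2-KI RIP gave -0.056 to 0.0429, and IgG RIP and input gave 0.0305 to 0.0646, so the numbers paired CELF2-KI RIP with input. This pairing comes from the data and from the replicate numbers in the labels. All 9 columns were used. Of the signalling list, 3 genes are not reported here and were left out of its counts.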

Additional observations from a re-analysis of the deposited data

How the results depend on the processing

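The depth of the RIPs leaves few counts for Bdnf and Ntf3, and the division of reads among overlapping rows carries an error that the deposited table does not hold. Of the members' calls, those of Ntrk3 were kept in all fits that left out 1 library. The number of members called against IgG RIP (1) was 0 with upper-quartile scaling, with library totals, with coding and noncoding genes together and with curated rows only (chosen after seeing the data, like the limma test), and 1 to 2 with 1 library left out. Against input (2) it was 1 with DESeq2 size factors, upper-quartile scaling, no filter, DESeq2's Wald test and the replicate block, 0 with curated rows only and 1 to 2 with 1 library left out. It stayed 2 with coding and noncoding genes, but there Ntrk2 was at 0.60 and not called and Ntf3 was called lower, at -1.05. Between IgG RIP and input (0) it was 1 with DESeq2 size factors, DESeq2's Wald test and coding and noncoding genes, and 0 to 1 with 1 library left out. The number higher than both controls (1) was 0 under the 4 settings that gave 0 against IgG RIP, and 1 to 2 with 1 library left out.

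The signalling list had 12 calls against IgG RIP and 16 against input with library totals, 17 against input with coding and noncoding genes, and 2 to 4 between IgG RIP and input with 1 library left out. Directions turned where changes were small. Library totals gave -0.04 for Ntf3 against IgG RIP, -0.07 for Ngfr against input, and -0.02 for Bdnf and -0.02 for Ntrk2 between IgG RIP and input. Coding and noncoding genes gave 0.00 for Ngfr against input, and -0.10 for Bdnf and -0.10 for Ntrk2 between IgG RIP and input. Curated rows gave -0.37 for Ntf3 against IgG RIP, and -0.14 for Ntrk2 and -0.22 for Ntrk3 between IgG RIP and input. DESeq2 size factors and the Wald test gave 0.00 for Ntrk2 between IgG RIP and input, and leaving out 1 library gave 0.00 to 0.16 for Bdnf.

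Rows called against IgG RIP (1) were 3 with DESeq2 size factors, 7 with the Wald test, 0 with the replicate block, which ended the call of XM_011250817.2, and 1 to 2 with 1 library left out. Against input (2) they were 5 with the Wald test, and between IgG RIP and input (0) they were 7 with the Wald test and 0 to 3 with 1 library left out. NM_001025074.2 turned to 0.09 against input with DESeq2 size factors and the Wald test, and NM_182809.2 to 0.05 between IgG RIP and input with library totals. With 1 library left out, XR_882025.2 ran from -0.29 to 1.03 against IgG RIP and from -0.58 to 0.74 against input, and between IgG RIP and input XM_006517149.3 ran from -0.71 to 0.29, NM_182809.2 from -0.45 to 0.21 and NM_001282961.1 from -0.42 to 0.15. The Ntrk2 form difference against input ran from -0.12 to 0.08. The Ntrk3 form difference against input, 2.25, was called by limma only. The cause of these changes was not tested. The replicate block changed no other call of a member, list count or form beyond those named here and in the report.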
